A study of Mus musculus with 4 samples.

Results

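The genes described here encode the factors that act on sperm chromatin after fertilisation: the nucleoplasmin family members Npm2 and Npm3, the protamine kinase Srpk1, the nucleosome assembly proteins Nap1l1 and Nap1l4, and the acidic chaperones Set and Anp32a. They were chosen by name, as the features whose symbol equals one of these, and all 7 were found among the 55291 features of the deposited count table. RNA-seq was performed on mouse zygotes, eggs just fertilised and not yet divided, in a series on what H3.3 from the mother's stored RNA does to the genomes of both parents. There were 4 samples, 1 per group: MO injected, MO control, S31A injected and S31A control. The labels name H3.3 with both agents; they spell out neither MO, usually short for a morpholino that binds an RNA, nor S31A, the usual notation for a serine exchanged for alanine. All 4 groups were labelled as zygotes. What the control zygotes received, the strain, the number of embryos per library and the hour of collection are not stated in the labels.

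Sperm DNA is packed by protamines, small arginine-rich proteins that replace histones during sperm formation. In the egg the protamines are taken off and maternal histones, H3.3 among them, are laid down on the paternal genome. Acidic chaperones bind basic protamines and histones in this exchange, and in mouse zygotes phosphorylation of protamine by SRPK1 allows NPM2 to remove it. The RNA for such factors is largely stored in the egg before ovulation.

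The acidic stretches of these chaperones can be read in their coding sequences as runs of acidic codons: GAA and GAG encode glutamate, and GAC and GAT encode aspartate. The longest such run is shown for Npm2, Anp32a and Set, which hold the longest runs among the 7 genes, and for Npm3, whose run is shorter than that of its family member Npm2. Sequences are from GENCODE M21 transcripts on mm10, 5′ to 3′ on the coding strand, and capitals mark acidic codons.
Npm2: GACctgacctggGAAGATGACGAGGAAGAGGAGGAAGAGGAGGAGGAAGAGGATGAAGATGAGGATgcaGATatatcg
Anp32a: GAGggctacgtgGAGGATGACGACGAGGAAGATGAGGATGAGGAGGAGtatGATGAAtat
Set: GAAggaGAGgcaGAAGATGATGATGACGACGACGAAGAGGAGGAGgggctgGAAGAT
Npm3: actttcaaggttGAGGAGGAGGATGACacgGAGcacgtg

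The Npm2 run held 18 acidic codons, from codon 125 to codon 142 of 207. The run of Anp32a held 12, that of Set 11, that of Nap1l1 6, those of Npm3 and Nap1l4 5 each, and that of Srpk1 4. Across 21501 protein-coding genes the median longest run was 3 codons, and 0.2465% of genes had a run at least as long as that of Npm2. By share of all codons the order was different: acidic codons made up 35.6% of Anp32a, 29.8% of Set, 26.6% of Nap1l1, 21.8% of Nap1l4, 20.3% of Npm2, 16.6% of Npm3 and 15.6% of the kinase Srpk1, against a median of 11.2% over all genes. Only 0.04651% of genes had a share at least as high as that of Anp32a. In global alignments, with gap columns counted, the coding sequences of Npm2 and Npm3 were identical at 285 of 698 columns (40.8%). Those of Nap1l1 and Nap1l4 were identical at 828 of 1205 columns (68.7%), with a longest exact shared run of 20 bases.

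**Figure D1:**
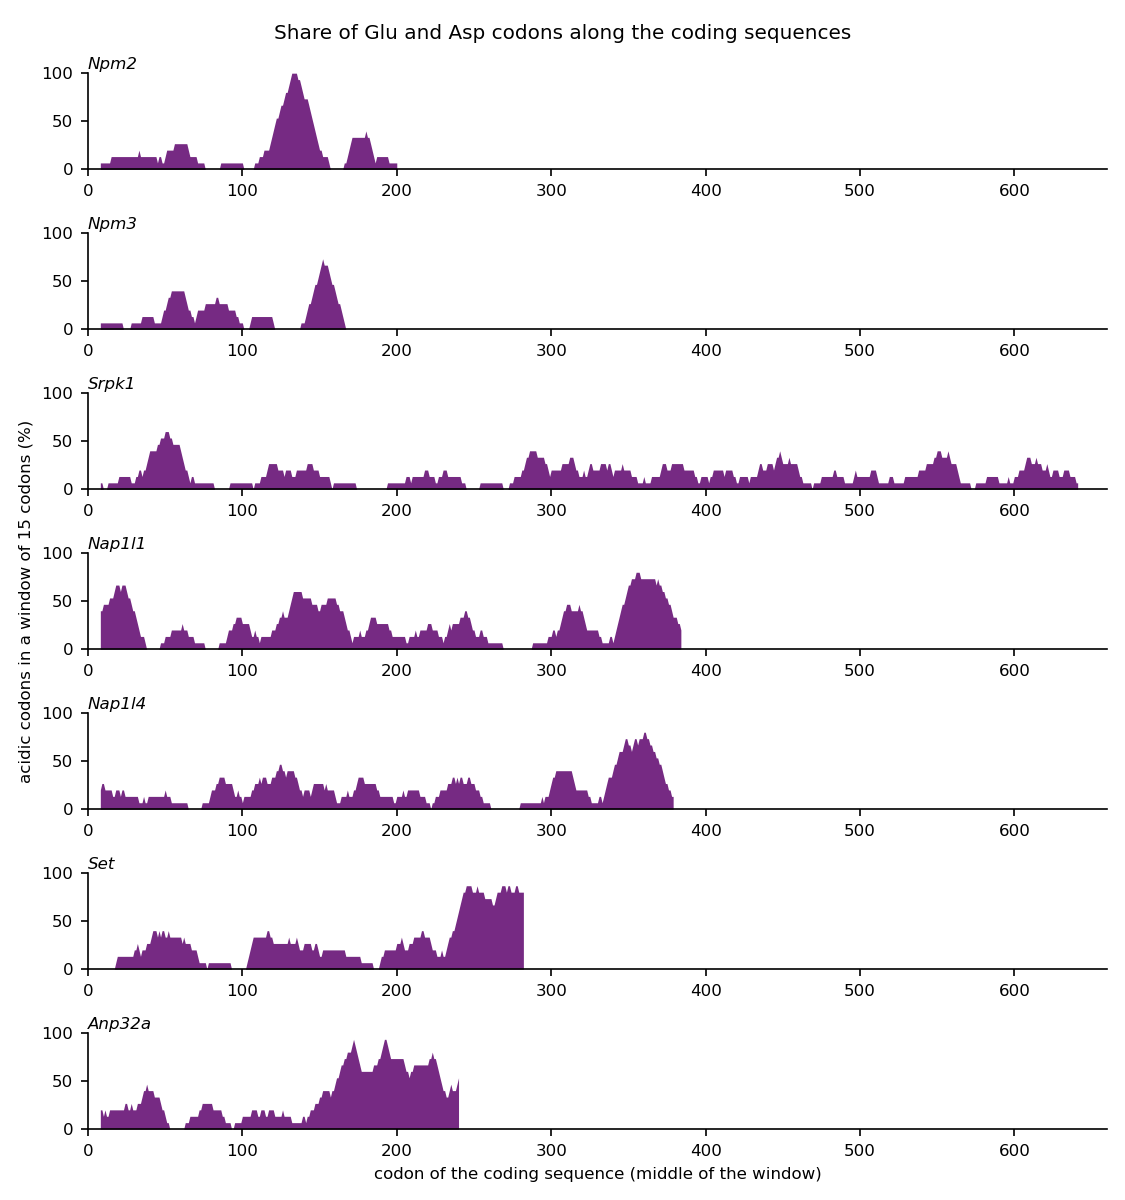
Share of acidic codons (%, y axis) in a sliding window of 15 codons along the coding sequence (codon number, x axis) of the 7 genes. The window of Npm2 reaches 100.0%, those of Anp32a and Set 93.3% and 86.7%, and those of Nap1l1 and Nap1l4 80.0%. That of Npm3 reaches 73.3% and that of Srpk1 60.0%.

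Each sample had 2 count columns, called libraries here; whether these came from different embryos or from the same material is not stated, so they were not taken as replicates of a condition. Depth was 5661621 to 13233371 counts per library. Levels are given as CPM, read counts relative to the library's scaled total, after TMM scaling, which corrects for differences in library composition. The difference of a gene between samples is the log2 ratio of CPM from counts summed per sample, with an exact 95% interval. This interval covers counting error only and holds no spread between libraries or samples. Duplicates made by PCR could not be removed without molecular identifiers, so it may be too narrow even for counting error. A gene was called measured where either sample of a comparison reached 10 CPM. With 1 sample per group no difference has a replicate check, and in bulk RNA fewer cells with a transcript and less RNA per cell cannot be told apart. The spread between libraries of a sample was wide: across measured genes the median gap was 0.52 to 0.71 on the log2 scale, and in the MO injected sample 37.0% of genes lay 2-fold or more apart between its own libraries.

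The genes of H3.3 itself, H3f3a and H3f3b, were far lower in MO injected zygotes. H3f3a had 8.04 and 52.4 CPM in MO injected libraries, against 462 and 586 CPM in MO control libraries, and H3f3b had 2.30 and 10.5 CPM in MO injected libraries, against 2199 and 1550 CPM in MO control libraries. In the S31A experiment H3f3a had 484 and 648 CPM in injected libraries, against 657 and 563 CPM in control libraries, and H3f3b had 2438 and 2749 CPM in injected libraries, against 1453 and 1819 CPM in control libraries. Gene counts do not show an allele.

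The genes were first counted by a 2-fold difference. With MO, 0 of the 5 measured genes were 2-fold or more apart, where 23.8% of 8110 measured genes were. With S31A, 3 of the 6 measured genes were: Srpk1 and Anp32a were higher and Npm2 was lower, where 14.1% of 8191 measured genes were 2-fold higher and 16.1% lower, 30.2% in all. Anp32a was measured there through the injected sample alone, so its difference follows in part from the filter. Npm3 stayed under 10 CPM in all samples and was not counted, although its level was over 2-fold lower in both experiments, and Anp32a was under it in both MO samples. The median log2 ratio was 0.09 over the 5 genes with MO, against 0.03 over all measured genes. With S31A it was 0.59 over the 6 genes, Anp32a included, against 0.02 over all measured genes.

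**Figure D2:**
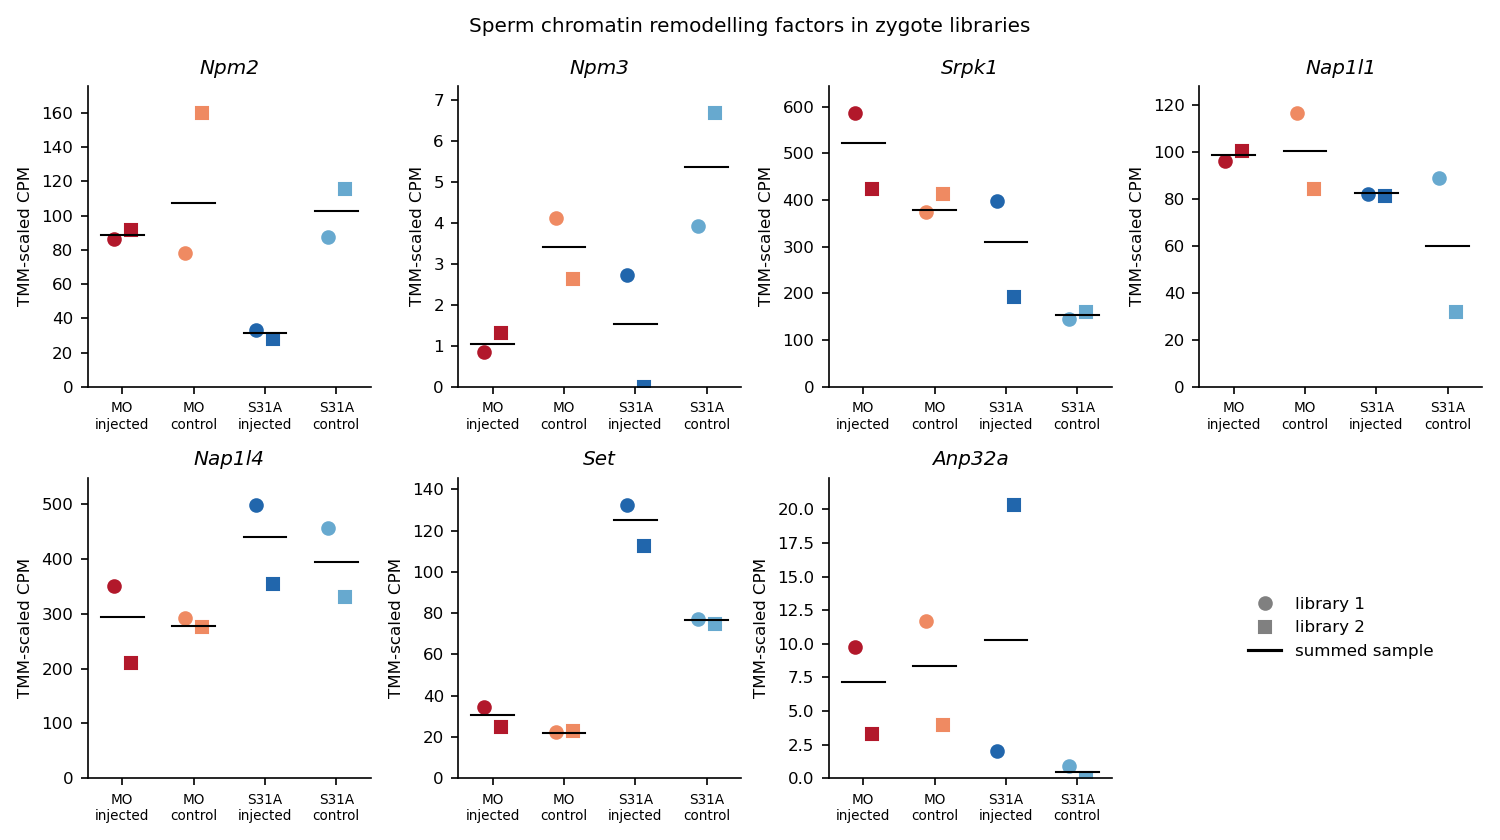
TMM-scaled CPM (y axis, from 0) of the 7 genes in each library (circles, library 1; squares, library 2) of the 4 samples, with a bar at the value of the summed sample. Npm2 lies at 33.4 and 28.2 CPM in the S31A injected libraries, below the other 6 libraries.

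Npm2, the egg-specific nucleoplasmin that removes protamine, lies on chromosome 14 of mm10 (70647302 to 70659244, minus strand). It had 33.4 and 28.2 CPM in S31A injected libraries, against 87.7 and 115.5 CPM in S31A control libraries. The injected libraries were the lowest of all 8, and 19.8% of measured genes likewise had the S31A injected libraries under the control libraries. The log2 ratio was −1.71 (95% interval −1.84 to −1.58), a level 3.27-fold lower. It exceeded the gaps between libraries of 0.25 in the injected and 0.40 in the control sample, as for 25.3% of measured genes. Leaving out each library in turn gave −1.90 to −1.45.

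Npm2 had 86.1 and 91.8 CPM in MO injected libraries, against 77.9 and 159.8 CPM in MO control libraries. The injected values lay between the control values, and the log2 ratio of −0.27 (−0.36 to −0.17) was smaller than the gap of 1.03 between the control libraries. It was −0.81 without MO control library 1 and turned to 0.23 without MO control library 2. The difference between the ratios of the 2 experiments, S31A minus MO, was −1.44 and was not tested. Npm2 shares 39 of its 1036 exon bases with Xpo7 on the same strand, a nuclear export receptor gene with 8796 counts in all.

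Npm3, a nucleoplasmin family member also made outside the egg, lies on chromosome 19 (45747734 to 45749591, minus strand) and was near the limit of detection. Its counts were 32 and 0 in S31A injected libraries, against 42 and 76 in S31A control libraries. In the MO experiment they were 11 and 12 in injected libraries, against 38 and 16 in control libraries. As CPM the injected libraries were below the control libraries in both experiments, with 2.73 and 0 CPM against 3.92 and 6.68 CPM for S31A, and 0.843 and 1.31 CPM against 4.13 and 2.63 CPM for MO.

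The log2 ratio of Npm3 was −1.75 (−2.42 to −1.24) with S31A and −1.63 (−2.49 to −0.99) with MO. The S31A value rests on injected library 2, where the gene had no counts: without that library the ratio was −0.97, and without injected library 1 it was −5.57. The 0 counts allow up to 3 counts in that library. With the counts of its copy added, described further on, the ratios were −1.22 and −0.55.

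Srpk1, the SR protein kinase that phosphorylates protamine as well as splicing factors, lies on chromosome 17 (28587648 to 28622709, minus strand). It had 398 and 192 CPM in S31A injected libraries, against 145 and 160.1 CPM in S31A control libraries. Both injected libraries were above both controls, by a wide margin for injected library 1 and a small one for injected library 2. The log2 ratio of 1.01 (0.95 to 1.07), a 2.01-fold higher level, was below the gap of 1.05 between the injected libraries, and without injected library 1 it was 0.28. Scaling by total counts alone gave 0.91, under 2-fold.

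With MO, Srpk1 had 586 and 424 CPM in injected libraries, against 374 and 413 CPM in control libraries. Both injected libraries were again above the controls, as for 19.2% of measured genes in that direction, with a log2 ratio of 0.47 (0.42 to 0.51). Here too the value rests on 1 library, since without MO injected library 1 the ratio was 0.09.

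Nap1l1, a histone chaperone of the nucleosome assembly protein family that carries H2A and H2B, lies on chromosome 10 (111473223 to 111498150, plus strand). It had 82.0 and 81.1 CPM in S31A injected libraries, against 88.8 and 31.7 CPM in S31A control libraries. The groups overlapped, and the log2 ratio of 0.46 (0.36 to 0.57) was set by control library 2: without it the ratio was −0.07, and without control library 1 it was 1.40. With MO it had 96.3 and 100.4 CPM in injected libraries, against 116 and 84.0 CPM in control libraries, again overlapping, with a log2 ratio of −0.03 (−0.12 to 0.07), which was 0.26 without control library 1.

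Nap1l4, its close relative, lies on chromosome 7 (143513579 to 143549106, minus strand) and varied least of the 5 genes detected above 10 CPM throughout. Its highest library, at 498 CPM, was 2.38-fold above its lowest, at 209 CPM. It had 498 and 355 CPM in S31A injected libraries, against 456 and 330.2 CPM in S31A control libraries, a log2 ratio of 0.16 (0.11 to 0.20). With MO it had 351 and 209 CPM in injected libraries, against 292 and 275 CPM in control libraries, a log2 ratio of 0.09 (0.03 to 0.14). The groups overlapped in both experiments, and the gap between injected libraries was larger than either ratio, at 0.49 for S31A and 0.74 for MO. The direction turned to −0.19 for S31A without injected library 1 and −0.02 without control library 2, and to −0.48 for MO without injected library 1 and −0.02 under total counts alone.

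Set, the template activating factor that also inhibits the phosphatase PP2A, lies on chromosome 2 (30057378 to 30072577, plus strand). It had 132.5 and 113 CPM in S31A injected libraries, against 77.2 and 74.8 CPM in S31A control libraries. The injected libraries were above the controls. The log2 ratio of 0.71 (0.62 to 0.80) exceeded both library gaps, of 0.23 and 0.04, as for 25.3% of measured genes. Leaving out each library in turn gave 0.52 to 0.77.

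With MO, Set had 34.3 and 24.996 CPM in injected libraries, against 22.4 and 22.7 CPM in control libraries, a log2 ratio of 0.49 (0.30 to 0.68). The injected libraries were above the controls, though without MO injected library 1 the ratio was 0.12. Of the 5 genes measured with MO, Srpk1 and Set had both injected libraries above both controls, where 19.2% of measured genes did. Both were below for 0 of the 5, where this held for 21.3% of measured genes. With S31A, Srpk1, Set and Anp32a of the 6 had both above, where 19.8% of measured genes did. Anp32a was measured through the injected sample alone, so its place there follows in part from the filter. Npm2 had both below, where 19.8% of measured genes did.

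Anp32a, a leucine-rich acidic phosphoprotein that is found with SET in inhibitor complexes, lies on chromosome 9 (62341293 to 62378812, plus strand). Its counts were 24 and 190 in S31A injected libraries, against 10 and 0 in S31A control libraries. The injected libraries were above the controls, but 190 of the 214 injected counts came from 1 library, and the log2 ratio of 4.22 (3.59 to 5.57) was 1.91 without it and 6.51 without control library 1. With MO the counts were 128 and 30 in injected libraries, against 108 and 24 in control libraries. Both MO samples had 1 library well above the other, the groups overlapped, and the log2 ratio was −0.22 (−0.57 to 0.12), and ran from −1.40 without injected library 1 to 0.87 without control library 1.

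**Figure D3:**
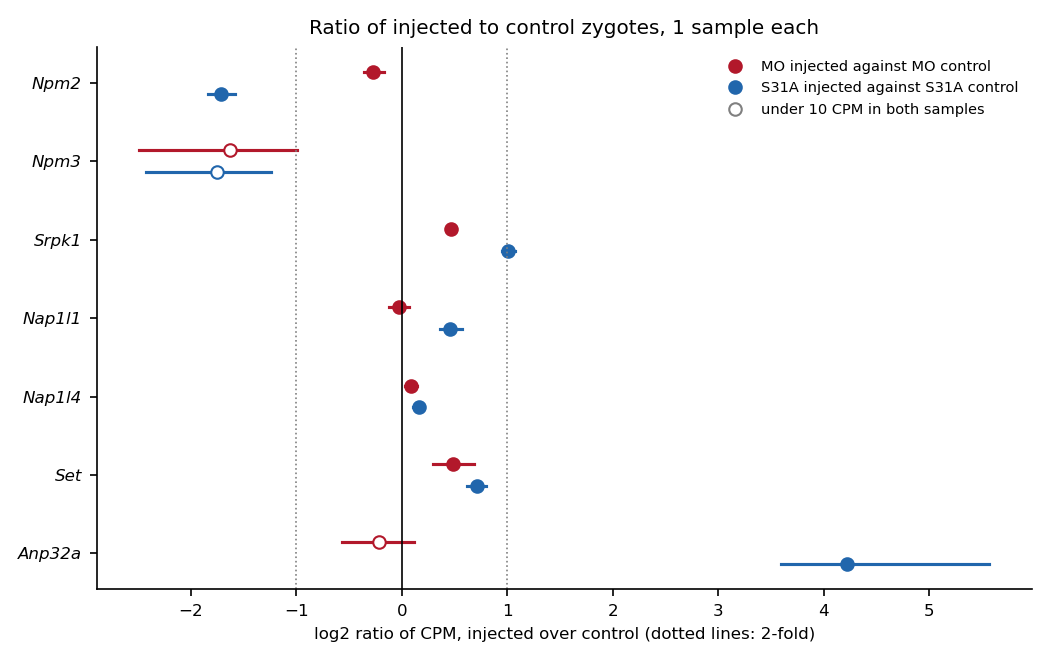
Log2 ratio of CPM, injected over control (x axis), of the 7 genes in the MO and S31A experiments; lines are exact 95% intervals for counting error only and open symbols mark genes under 10 CPM in both samples. Npm2 in the S31A experiment, at −1.71, and Anp32a, at 4.22, lie beyond the dotted lines at 2-fold, and Srpk1 lies on the line at 1.01.

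The controls of the 2 experiments also differed from each other. Of the 5 genes measured between them, 2 were 2-fold or more apart, where 29.8% of 8266 measured genes were. Set was 3.50-fold higher in the S31A control sample than in the MO control sample, with a log2 ratio of 1.80 (1.64 to 1.98), and Srpk1 was 2.45-fold lower, at −1.29 (−1.36 to −1.23). For both genes this gap between controls was larger than the gap between injected and control zygotes in either experiment. Set and Nap1l4 were higher in both S31A control libraries, where 21.2% of measured genes were, and Srpk1 was lower in both, where 25.2% were. Nap1l4 had a log2 ratio of 0.51 (0.46 to 0.56), while the control libraries overlapped for Npm2 (−0.06, −0.15 to 0.03) and Nap1l1 (−0.75, −0.86 to −0.64). Anp32a, under 10 CPM in both controls, was lower in both S31A control libraries, with summed levels of 0.456 CPM in the S31A control and 8.37 CPM in the MO control (−3.93, −5.29 to −3.27). Its level in the S31A injected sample was 10.3 CPM and that in the MO injected sample 7.16 CPM, so the S31A control was the low sample of the 4. These ratios share a control sample with each injected comparison and are set beside them only as values.

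Levels per length were taken as TPM, counts per base of gene length scaled to the same sum in each library. They were computed from the counts and the deposited gene lengths. Nap1l4 or Npm2 was the highest of the 7 genes in each of the 8 libraries. Counts on copies, described further on, are left out of this order. Gm4204, a copy of Nap1l1, had 416 TPM in the S31A injected and 647 TPM in the MO injected sample, above Nap1l4 and Npm2. The order also rests on the deposited lengths, with 12376 bases for Srpk1 against a coding sequence of 1947 bases. Npm2 had a level of 65.3 TPM in the S31A injected sample and 235 TPM in its control, and 212 TPM in the MO injected sample and 285 TPM in its control. Nap1l4 had 306 TPM in the S31A injected sample and 302 TPM in its control, and 235 TPM in the MO injected sample and 247 TPM in its control. Nap1l4 exceeded Npm2 in 5 libraries and Npm2 exceeded Nap1l4 in 3, so their order was not set beyond the spread between libraries outside the S31A injected sample, where Nap1l4 was higher in both.

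Srpk1 and Set changed places between the experiments. Srpk1 stood above Set in all 4 MO libraries, with 104 TPM against 18.6 TPM for Set in the injected sample and 84.2 TPM against 14.8 TPM in the control. Set stood above Srpk1 in all 4 S31A libraries, with 66.1 TPM against 53.9 TPM for Srpk1 in the injected sample and 44.6 TPM against 29.5 TPM in the control. Set and Npm2 were nearly level in the S31A injected libraries, at 74.8 and 74.1 TPM in library 1 and 56.5 and 55.5 TPM in library 2. Npm3 and Anp32a were the lowest in all 8 libraries, with summed levels of 0.342 to 10.8 TPM.

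For 4 of the 7 genes the genome holds near-identical copies of the coding sequence, mostly processed pseudogenes without introns, and part of the counts stood on these. At 85% identity over at least 50% of the coding sequence there were 18 copies, of which 6 had 50 counts or more. The alignments were made by Bowtie2, per the submitters' processing notes, and it does not split a read across an intron. A read over an exon junction of the gene can thus match its copy without a break. Reads were not examined, and whether counts on a copy came from RNA of the gene or of the copy was not tested. A stretch over such a junction is shown for Nap1l1 and Npm3, the genes with the largest share of counts on a copy. The central pair of capitals are the bases on either side of the junction, and a further capital marks a base that differs; Nap1l1 bases 529 to 588 and Npm3 bases 175 to 234 of the coding sequence are given, from GENCODE M21 and mm10.
Nap1l1: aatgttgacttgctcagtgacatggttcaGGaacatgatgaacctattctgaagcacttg
Gm4204: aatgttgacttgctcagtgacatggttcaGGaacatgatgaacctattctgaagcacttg
Npm3: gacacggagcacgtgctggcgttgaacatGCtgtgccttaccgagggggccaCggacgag
Npm3-ps1: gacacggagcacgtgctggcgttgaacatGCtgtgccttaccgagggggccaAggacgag

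Gm4204, a processed pseudogene on chromosome 1 (135231995 to 135233225, plus strand), differed from Nap1l1 at 2 of 1090 aligned bases and shared an exact run of 688 bases. Over all 8 libraries it held 22684 counts, 3.34 times the 6789 of Nap1l1 itself. Copies took 74.2% of the joint counts in the S31A injected sample and 82.8% in its control, where library 2, the one with 31.7 CPM of Nap1l1, had 92.0% on the copy. They took 76.6% in the MO injected sample and 73.2% in its control. With copies added, the log2 ratio of Nap1l1 was −0.12 for S31A, against 0.46 without them, so its direction turned, and for MO it was 0.17.

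Npm3-ps1, a processed pseudogene on chromosome 6 (85076192 to 85076719, plus strand), differed from Npm3 at 6 of 528 bases and held 617 counts, 2.72 times the 227 of Npm3. It had 8.01 and 0.214 CPM in S31A injected libraries, against 10.2 and 7.82 CPM in S31A control libraries. Injected library 2 was thus near 0 on the copy as well as on the gene. In the MO experiment Npm3-ps1 had 7.12 and 8.62 CPM in injected libraries, against 12.1 and 6.58 CPM in control libraries, which overlapped.

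Set had 14 copies, of which 8 had no counts. Gm9531, annotated as a transcribed processed pseudogene, lies on chromosome 9 (81677598 to 81678677, plus strand). It was identical to Set over 775 aligned coding bases and held 894 of the 1091 counts on copies of Set, against 5304 on Set. It had 10.1 and 8.14 CPM in S31A injected libraries, against 14.5 and 17.8 CPM in S31A control libraries, and 10.3 and 11.4 CPM in MO injected libraries, against 4.67 and 9.70 CPM in MO control libraries. In the S31A experiment the copy was thus lower in injected zygotes where Set was higher. The copies Gm5789 and Gm7239 had 107 and 79 counts in all.

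Copies took 8.63% of the joint Set counts in the S31A injected sample and 19.95% in its control, and adding them gave a log2 ratio of 0.52, against 0.71 without them. Srpk1 had 1 copy, Gm8876 on chromosome X (88755574 to 88756695, minus strand), with 92.3% identity and 895 counts against 27326, and adding it left the S31A ratio at 1.01. How reads with several matches were counted is not stated, so the split between a gene and its copy is uncertain for these 4 genes.

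**Figure D4:**
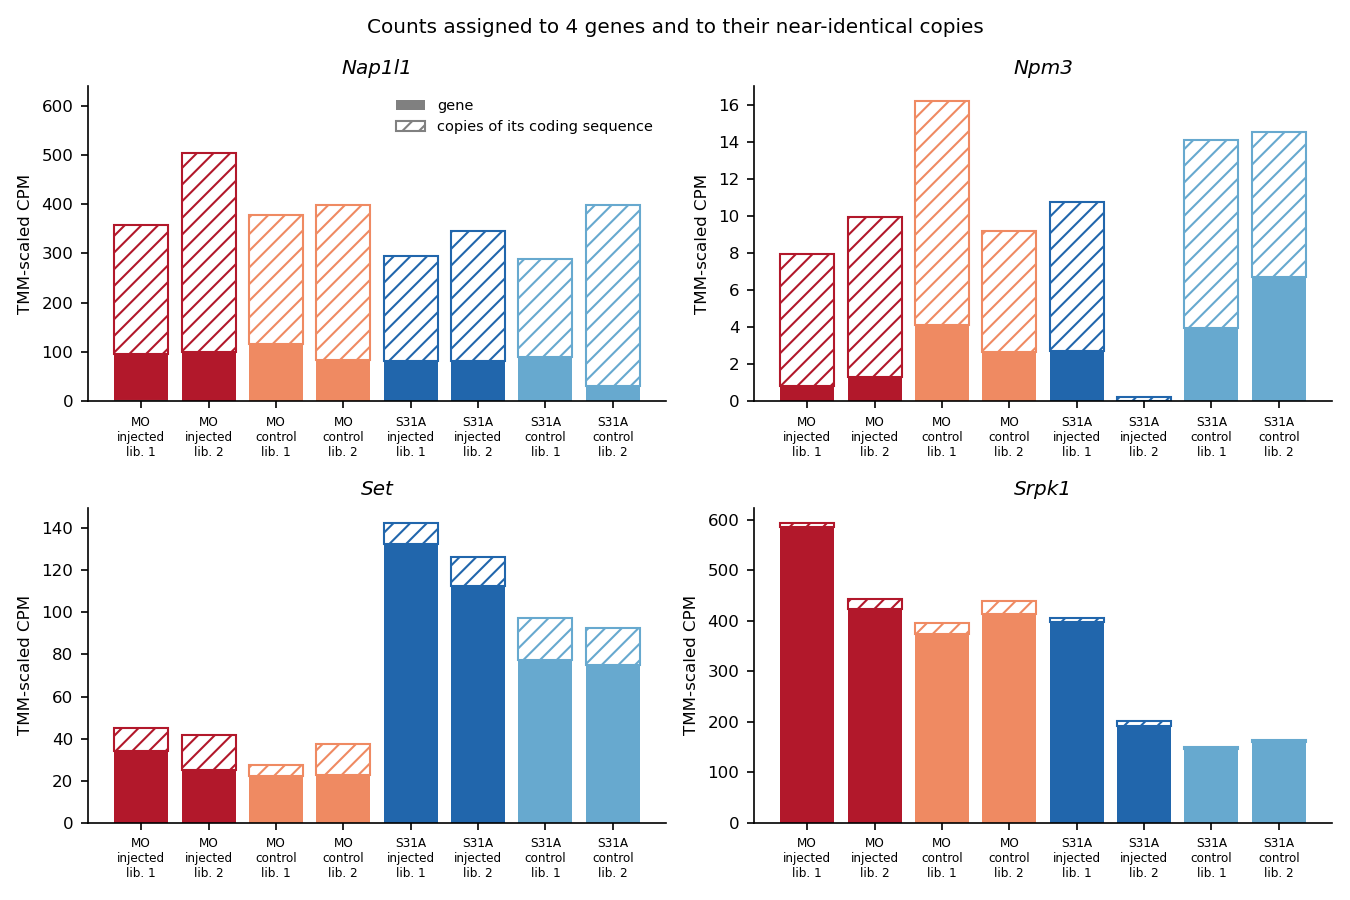
TMM-scaled CPM (y axis, from 0) of Nap1l1, Npm3, Set and Srpk1 (filled) with their near-identical copies stacked on top (hatched) in each of the 8 libraries. Copies hold 92.0% of the joint Nap1l1 counts in S31A control library 2, and a small part of those of Srpk1 in every library.

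Likeness of pattern over the 8 libraries was measured as the root mean square (RMS) difference of log2 CPM after removing each gene's mean. Among the 7 genes the closest pair was Srpk1 and Nap1l1, at 0.60, and Npm3 and Anp32a were the farthest apart, at 3.26. Among 7702 candidates, the nearest to Npm2 was Prom1, at 0.27, followed by Map1lc3b, an autophagosome protein gene, at 0.30, and Smarca4, which encodes the BRG1 remodelling ATPase, at 0.31.

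Smarca4 had 24.6 and 14.3 CPM in S31A injected libraries, against 56.8 and 63.9 CPM in S31A control libraries. The nearest to Srpk1 was Ccng2, a cyclin gene, at 0.13, with 98.8 and 50.5 CPM in S31A injected libraries, against 33.9 and 37.1 CPM in S31A control libraries. Pdpk1 and Atp2b1 followed at 0.28 each. The nearest to Nap1l4 were Ets2, at 0.13, and Rae1 and Ticrr, at 0.15 each.

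Fnbp4, Zbtb24 and Srek1ip1 lay nearest to Nap1l1, at 0.19 to 0.23, and Cnot11, Relch and Prxl2a to Set, at 0.29 to 0.34. Those nearest to the low genes were less alike, at 0.53 to 0.60 for Zfp143, Tnpo2 and Thap1 beside Npm3 and at 0.76 to 0.93 for Ppp4r3a, Lrmda and Rnf167 beside Anp32a. The genes were chosen for likeness among all candidates over 8 libraries, so these values are a description of the libraries.

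Other genes of the same families and of neighbouring steps were described by list. The counts of each list are to be read beside all measured genes. Of these, 14.1% were 2-fold or more higher and 16.1% lower with S31A, and 11.3% and 12.5% with MO. Of 11 paralogues of the 7 genes, 7 were measured in each experiment. With S31A, 1 was 2-fold or more higher and 1 lower, with a median log2 ratio of 0.31, against 0.02 over all measured genes. Tspyl4, of the nucleosome assembly protein superfamily, had 113 and 215 CPM in injected libraries, against 102 and 45.5 CPM in control libraries (1.12). Nap1l3 had 22.3 and 20.2 CPM in injected libraries, against 51.5 and 45.9 CPM in control libraries (−1.18).

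Srpk2, the related SR protein kinase, was higher in both injected libraries (0.59, 0.52 to 0.66), as was Npm1, the nucleolar nucleophosmin (0.45, 0.41 to 0.48). With MO, 0 of the 7 were 2-fold apart, with a median of −0.09 that was 0.19 without injected library 1 and −0.65 without injected library 2, and the largest ratio was 0.75 for Anp32b, an acidic chaperone with both injected libraries above both controls. Nap1l3 followed at 0.58, Anp32e, which removes H2A.Z, at −0.47 and Tspyl1 at −0.45.

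Of 16 other histone chaperones, 13 were measured with S31A, with 1 higher, 1 lower and a median of −0.02. Asf1a, which hands H3 and H4 to other chaperones, had 501 and 615 CPM in injected libraries, against 243 and 219 CPM in control libraries (1.26). Chaf1a, of the chromatin assembly factor CAF-1, had 15.2 and 0.107 CPM in injected libraries, against 37.8 and 9.67 CPM in control libraries, which overlapped (−1.44), and was measured through the control sample alone. Ubn1, of the HIRA complex that deposits H3.3, was lower in both injected libraries (−0.85, −0.92 to −0.78), and Hjurp, the CENP-A chaperone, was higher (0.79, 0.74 to 0.85).

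With MO, 14 were measured, with 1 higher, 0 lower and a median of 0.07, which was 0.60 without control library 1 and −0.08 without control library 2. Rbbp4, a histone-binding subunit of several complexes, had 33.9 and 15.7 CPM in injected libraries, against 12.6 and 11.7 CPM in control libraries (1.16). Nasp, a linker histone and H3 chaperone, had 149 and 237 CPM in injected libraries, against 283 and 511 CPM in control libraries (−0.96). Chaf1a (−0.71) and Supt16 of the FACT complex (−0.69) overlapped between groups.

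Of 7 genes for PP2A, the phosphatase that SET inhibits, 6 were measured in each experiment, with 1 higher and 0 lower for S31A and 0 higher and 1 lower for MO; the median was 0.15 in both, and turned to −0.33 without S31A injected library 2 and −0.29 without MO injected library 1. The scaffold subunit gene Ppp2r1b had 53.5 and 21.2 CPM in S31A injected libraries, against 2.52 and 2.29 CPM in S31A control libraries (3.98, 3.63 to 4.46), and it was measured through the injected sample alone. In MO injected libraries it had 64.1 and 74.7 CPM, against 38.0 and 38.3 CPM in MO control libraries (0.90). The catalytic subunit gene Ppp2ca had 21.4 and 68.7 CPM in MO injected libraries, against 75.5 and 128 CPM in MO control libraries (−1.18).

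In S31A injected zygotes Ppp2ca had a ratio of −0.87 with overlapping libraries, and Ppp2r1a and Ppp2r5c overlapped too, at 0.49 and −0.41. With MO, Ppp2r1a and Ppp2r2a overlapped, at 0.81 and −0.37.

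Of 14 genes for SR proteins, the splicing factors that SRPK1 also phosphorylates, and the CLK kinases, 11 were measured in each experiment. With S31A none was 2-fold apart and the median was 0.08; Srsf3 had 147 and 291 CPM in injected libraries, against 119 and 116 CPM in control libraries (0.85), and Srsf10 was also higher in both (0.57). Srsf11 (0.76) and Clk3 (−0.55) overlapped. With MO, 1 was higher and the median was 0.30, or −0.25 without injected library 2; Clk3 had 28.8 and 5.57 CPM in injected libraries, against 8.69 and 7.23 CPM in control libraries, which overlapped (1.29), and was measured through the injected sample alone. Srsf5 was higher in both injected libraries (0.48). Srsf2 (−0.69) and Clk1 (−0.43) overlapped.

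Protamines are crosslinked by disulfide bonds that must be reduced in the egg, mainly through glutathione. Of 9 genes for glutathione and thioredoxin reduction, 5 were measured with S31A, with 2 higher and a median of 0.17, which was 1.20 without injected library 2 and −0.03 without control library 2. Gsr, which encodes glutathione reductase, had 14.7 and 10.2 CPM in injected libraries, against 0 and 0 CPM in control libraries, at least 93.6-fold higher with a floor of 3 counts over the control sample; it was measured through the injected sample alone. Gclc, for the catalytic subunit of glutathione synthesis, had 31.8 and 5.57 CPM in injected libraries, against 13.2 and 0 CPM in control libraries, which overlapped (1.65); it too was measured through the injected sample alone. Gclm (−0.60) and Txnrd1 (0.17) overlapped as well.

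With MO, 3 of the 9 were measured, none 2-fold apart, with a median of −0.58, which was −1.12 without injected library 2, −0.33 without injected library 1 and −0.07 with a filter of 1 CPM. Gclm, for the modifier subunit of glutathione synthesis, had 34.4 and 65.9 CPM in injected libraries, against 81.0 and 82.2 CPM in control libraries (−0.73), Txnrd1 was also lower in both (−0.58), and Glrx overlapped (−0.03).

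**Figure D5:**
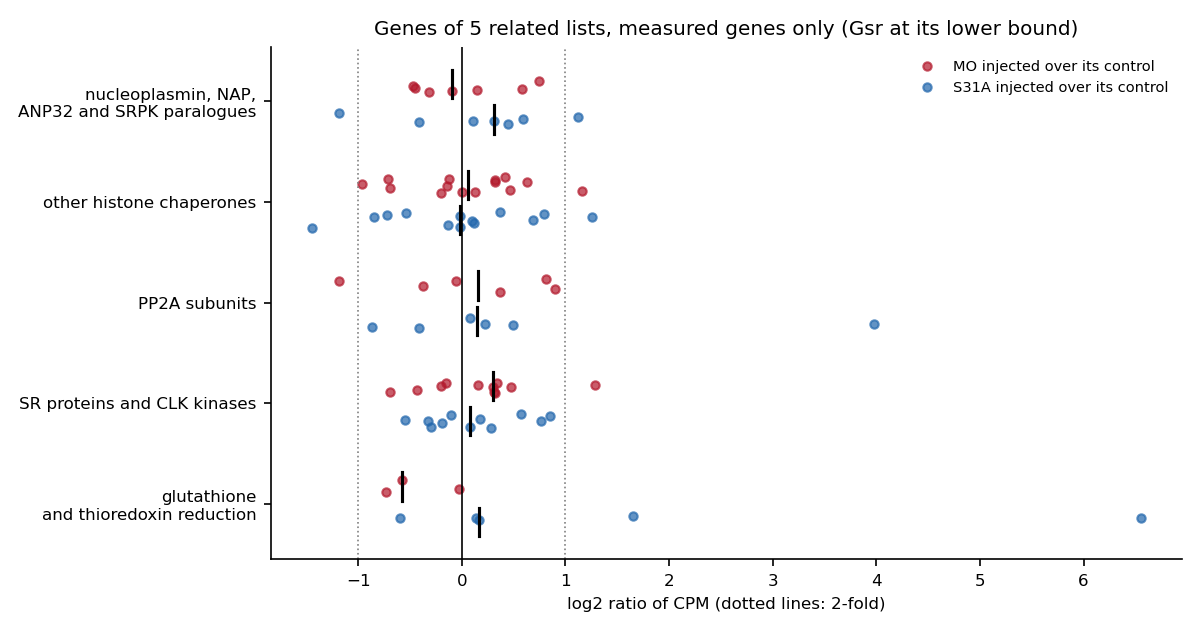
Log2 ratio of CPM, injected over control (x axis), of the measured genes of 5 lists (1 point per gene, black bars at the medians) in the MO and S31A experiments, with dotted lines at 2-fold. Medians lie between −0.58 and 0.31; Ppp2r1b at 3.98 and Gsr at its lower bound stand to the right with S31A.

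RNA of the packing proteins themselves was nearly missing. Of 7 sperm nuclear proteins, among them the protamines and transition proteins, only Prm2 was detected, with 0 and 32 counts in S31A injected libraries against 35 and 61 in S31A control libraries, and with 41 and 26 in MO injected libraries against 12 and 18 in MO control libraries. The other 6 had 0 counts in all 8 libraries, which allows up to 3 counts in each.

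Markers placed the libraries with eggs and zygotes: all 12 oocyte and zygote markers were detected in every library, with a summed level of 16745 and 6445 CPM in MO injected libraries, 7954 and 9900 CPM in MO control libraries, 16703 and 13065 CPM in S31A injected libraries and 11472 and 11548 CPM in S31A control libraries. By this sum injected library 1 of each experiment was the highest, though not for every marker. In MO injected library 1, Gdf9, H1f8 and Zar1 were at their highest, at 4674, 5338 and 3636 CPM. Bmp15, Ooep and Zp2 were at their lowest there, at 1293, 133 and 41.0 CPM. Between the MO samples 5 of the 12 were 2-fold or more higher and 2 lower, where 11.3% and 12.5% of measured genes were. Without injected library 1, Srpk1 had ratios of 0.09 with MO and 0.28 with S31A. The part of the marker levels in the Srpk1 and Set values was not tested. Of 10 cumulus and granulosa markers, Cyp19a1 and Nr5a2 were detected, with 1 count of Inha, and Amh, Foxl2 and Fshr were at 0 in all libraries. The summed cumulus level was 97.3 to 208 CPM in S31A injected libraries and 75.8 to 104 CPM in their controls, and 59.3 to 115 CPM in MO injected libraries and 68.1 to 68.7 CPM in their controls. Of 10 sperm markers Odf2 gave most of a summed 20.2 to 64.8 CPM, and of 9 blood and stroma markers Pecam1 gave most of 15.3 to 49.4 CPM.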

How the data were processed

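Per the labels, PCR-amplified cDNA from total RNA of zygotes was sequenced after NEBNext Ultra II DNA preparation. Bowtie2, featureCounts, FastQC, DESeq2 and mm10 are named in the submitters' processing notes. Their versions, the annotation, the use of strand and the handling of reads that match several places are not given in the sources used. The authors deposited raw counts per gene with no normalization, and gene lengths in bases. Of the feature symbols 96.4% were in GENCODE M21 and 95.6% had the same coordinates there. Libraries of a sample differed by a chi-square of 47.1 to 122.6 per degree of freedom, so none was a copy of another.

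The counts of each sample were added up and scaled by TMM factors (edgeR 4.0.16, R 4.3.3), with a prior count of 2 for log2 ratios, a filter of 10 CPM and a 2-fold threshold. Intervals are exact Clopper-Pearson intervals at 95%. Groups of 1 sample allow no test between them. edgeR's quasi-likelihood test with Benjamini-Hochberg adjustment, with and without a replicate block, and DESeq2 1.42.0 served as alternatives over the libraries; their p-values reflect only how far libraries of 1 sample lie apart, which may be technical. Ratios and intervals were tried on simulated counts with counting error alone, and edgeR's test on simulated counts with added spread. The first setting lacks the spread between libraries of these data, so it cannot show how the intervals behave under it. Copies were found with BLAST+ 2.17.0, and coding sequences were read with Biopython 1.88 (Python 3.11.15).

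Named genes were the 7 members, in each experiment up to 4 measured genes from every list, by size of log2 ratio, the 3 genes nearest in pattern to each member (predicted, clone, Mir and Snor symbols left out) and copies with 50 counts or more. Members and lists were chosen with earlier results of these data known. H3f3a, H3f3b, Prm2, Xpo7 and the markers fall outside this rule. Alternatives were DESeq2 size factors, total counts, a prior count of 0.5, filters of 1 and 50 CPM, the mean of library log2 values, copies added and each library left out.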

Additional observations from a re-analysis of the deposited data

Results flagged for a closer look

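Gm9531, the copy of Set on chromosome 9, lay on opposite sides of its controls in the 2 experiments. It is identical to Set over the aligned coding bases, and how reads with several matches were counted is not stated. Its counts may thus include reads of Set. The log2 ratio of Gm9531 was −0.80 (95% interval −1.06 to −0.55) with S31A. Both injected libraries were below both controls there, as for 19.8% of measured genes. With MO the ratio was 0.73 (0.40 to 1.09), and both were above, as for 19.2% of measured genes. The MO ratio was smaller than the gap of 1.02 between the control libraries and was 0.19 without MO control library 1 and 1.23 without MO control library 2. The gene reached 10 CPM in each experiment through the higher sample alone, with 9.35 CPM in the S31A injected and 16.3 CPM in the S31A control sample, and 10.8 CPM in the MO injected and 6.47 CPM in the MO control sample. The controls themselves differed, with a log2 ratio of 1.32 (1.01 to 1.67) for the S31A control over the MO control. This was larger than the injected ratio of either experiment. The difference of the injected ratios, S31A minus MO, was −1.53 and was not tested.

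Gm8876, the copy of Srpk1 on chromosome X, was the reverse. It had 6.91 and 9.96 CPM in S31A injected libraries, against 4.49 and 2.99 CPM in S31A control libraries, a log2 ratio of 1.14 (0.77 to 1.55) at a level under 10 CPM. With MO it had 8.65 and 19.0 CPM in injected libraries, against 20.9 and 26.3 CPM in control libraries, a log2 ratio of −0.78 (−1.01 to −0.55). This was smaller than the gap of 1.12 between the injected libraries, and it was −0.31 when MO injected library 1 was left out and −1.43 when library 2 was. Between the controls the log2 ratio of Gm8876, S31A over MO, was −2.55 (−2.94 to −2.23), larger in size than either injected ratio. The difference of the injected ratios, S31A minus MO, was 1.91 and was not tested. Srpk1 itself was higher in the injected libraries of both experiments.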

How the results depend on the processing

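With S31A, 3 measured genes of the 7 were 2-fold or more apart; scaling by total counts alone left 1, since Srpk1 was then at 0.91 and Anp32a under the filter, and leaving out 1 library gave 2 to 3. With MO the count was 0, leaving out 1 library gave 0 to 0, and a filter of 1 CPM gave 1, Npm3. Over the libraries, edgeR's quasi-likelihood test passed 0 of 6 measured members for S31A (smallest adjusted p 0.795; 1 had an unadjusted p under 0.05) and 0 with the replicate block (smallest adjusted p 0.935), while DESeq2 passed 1, Npm2, with an adjusted p of 0.000231. Over all genes, edgeR passed 2 for S31A, 0 with the block, and DESeq2 601. For MO, edgeR passed 0 of 8110 genes (419 at an unadjusted p under 0.05), 0 with the block, and DESeq2 54, with 0 members in each. Whether library numbers pair the libraries is not stated. Deviations of same-numbered libraries correlated at −0.01 for S31A and 0.07 for MO, which does not show how they were prepared. Total counts moved the median of all genes by over 0.1, to −0.09 in both experiments. Of 105 member ratios under alternatives per comparison, 101 kept their sign for S31A, 97 for MO and 103 between controls, and 0 of those at 2-fold changed sign. Adding copies raised the S31A count to 4, with Npm3. Low counts limit Npm3 and Anp32a, and 1 sample per group limits every comparison.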
